A study of Mus musculus with 18 samples.

Results

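The 6 genes described here are the adult alpha globin genes Hba-a1 and Hba-a2, the adult beta globin genes Hbb-bs and Hbb-bt, the haem synthesis gene Alas2 and the red cell membrane gene Slc4a1. They are 6 of the 21638 gene rows of the deposited table and were taken by symbol, across all 18 libraries. They were chosen by their levels in earlier results of these data, where they were low in the group labelled Ezh2 ECKO and high in the group labelled Hdac2 ECKO. Their values in the comparisons of Ezh2 ECKO and of Hdac2 ECKO with MCAO ipsilateral, and of Hdac2 ECKO with Ezh2 ECKO, are therefore given as a description with no test. The study sequenced messenger RNA from mouse brain cortical endothelial cells sorted as CD31+, CD41- and CD45- cells. MCAO is occlusion of the middle cerebral artery, a surgical model of stroke, and sham mice are its controls. The 6 groups, of 3 libraries each, were sham ipsilateral, sham contralateral, MCAO ipsilateral and MCAO contralateral, all of genotype WT, and Hdac2 ECKO and Ezh2 ECKO, both with MCAO and both from the ipsilateral side. ECKO is a knockout in endothelial cells, made with lox-flanked Hdac2 or Ezh2 alleles and the Cdh5CreERT2 recombinase, which acts in cells that use the endothelial Cdh5 promoter once tamoxifen is given. The Hdac2 protein removes acetyl groups from histones, and the Ezh2 protein is the methyltransferase subunit of Polycomb repressive complex 2. Every library, WT included, carries the label tamoxifen at 75 mg/kg. The design text gives 5 tamoxifen doses for the lox-flanked mice and has the cells taken on day 7 after the occlusion. The labels name adult mice and give no age. They do not say which libraries came from separate mice, or whether 1 mouse gave both sides under a shared number, so a p-value here measures only the spread between these libraries.

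Haemoglobin is built from alpha and beta globin chains, each of which holds a haem group that binds oxygen. Its messenger RNA is made in erythroblasts of the bone marrow and spleen, persists in reticulocytes after the nucleus is lost, and is degraded as the red cell matures. Endothelial cells are not a textbook site of adult beta globin synthesis, although alpha globin has been described in the endothelium of small arteries. Alas2 catalyses the first step of haem synthesis in erythroid cells, and Slc4a1 encodes band 3, the anion exchanger of the red cell membrane. The labels name no sort against a red cell surface antigen. In sorted bulk samples, fewer cells of a type and less RNA per cell cannot be told apart.

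The 2 members of each globin pair were summed before any test, because their coding sequences are nearly identical and the assignment of read pairs between them is uncertain. Hba-a1 (chromosome 11, bases 32283511 to 32284465, plus strand) and Hba-a2 (chromosome 11, bases 32296489 to 32297298, plus strand) lie on the same chromosome and strand of GRCm38. Their coding sequences, of 429 bases each, differ at 1 base (C381T, Hba-a1 first, counted from 1 at the start codon), which is an identity of 99.77%. Hbb-bs (chromosome 7, bases 103826534 to 103828096, minus strand) and Hbb-bt (chromosome 7, bases 103812524 to 103813996, minus strand) differ at 1 of 444 coding bases (C417T, Hbb-bs first). The longest run of bases shared by the transcripts was 415 in the alpha pair and 430 in the beta pair. The coding windows around both differences, from GENCODE M21 on GRCm38, show how little separates the members of a pair, with the differing base in capitals.
Hba-a1 (chr11:32284313-32284372, plus strand): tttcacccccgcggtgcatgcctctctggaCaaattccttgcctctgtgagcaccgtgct
Hba-a2 (chr11:32297130-32297189, plus strand): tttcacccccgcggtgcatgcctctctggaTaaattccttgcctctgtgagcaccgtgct
Hbb-bs (chr7:103826665-103826724, minus strand): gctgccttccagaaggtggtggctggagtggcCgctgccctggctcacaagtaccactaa
Hbb-bt (chr7:103812656-103812715, minus strand): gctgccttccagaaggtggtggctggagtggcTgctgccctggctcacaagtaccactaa

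The promoters of the globins are shown because the levels of the 2 pairs moved together across the libraries, and that of Alas2 is set beside them as the promoter of an erythroid gene that did not rank the libraries in the same way. Each run is the 150 bases before the start site given by RefSeq on GRCm38.p6, and the GENCODE models of these genes begin farther upstream. Capitals mark 4 motifs on either strand, so that a match on the opposite strand shows as the reverse complement. The motif CACCC is a core of the sites bound by the erythroid factor KLF1, and AGATAA is a form of the site of the erythroid factor GATA1. The box CCAAT is bound by NF-Y, and TATAAA is a form of the TATA box.
Hba-a1 (chr11:32283522-32283671, plus strand): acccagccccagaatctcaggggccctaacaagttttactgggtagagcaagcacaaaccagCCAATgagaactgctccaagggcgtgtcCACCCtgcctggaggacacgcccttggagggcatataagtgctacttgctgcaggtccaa
Hbb-bs (chr7:103827929-103828078, minus strand): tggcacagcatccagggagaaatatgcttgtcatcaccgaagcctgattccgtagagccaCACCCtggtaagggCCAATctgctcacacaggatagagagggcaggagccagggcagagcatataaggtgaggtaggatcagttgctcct
Hbb-bt (chr7:103813924-103814073, minus strand): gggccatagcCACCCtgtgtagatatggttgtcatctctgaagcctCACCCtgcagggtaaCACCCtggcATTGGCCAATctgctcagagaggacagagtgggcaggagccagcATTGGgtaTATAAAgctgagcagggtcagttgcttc
Alas2 (chrX:150547267-150547416, plus strand): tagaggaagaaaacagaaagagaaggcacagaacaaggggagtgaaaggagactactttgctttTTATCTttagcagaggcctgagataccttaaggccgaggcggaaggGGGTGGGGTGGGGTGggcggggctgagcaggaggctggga
The Hba-a2 window matched that of Hba-a1 at 147 of 147 shared bases after a shift of 3 bases. The 2 beta globin windows matched at 109 of 148 bases (73.6%) after a shift of 2 bases. CACCC was found in all of these windows, and CCAAT was found in the globin windows but not in that of Alas2. AGATAA was found in the Alas2 window alone, and TATAAA in the Hbb-bt window alone. Only these exact strings were searched, and the Hba-a1 and Hbb-bs windows hold the near match TATAAG, so they are not shown to lack a TATA box. Over 32851 mouse promoters of the same length, 37.4% held CACCC, 5.65% held AGATAA, 24.5% held CCAAT and 7.57% held TATAAA, and no 2 matches overlapped in the windows shown. Slc4a1 is named only.

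Library totals ran from 25791401 to 57576255 counts. All 12 endothelial markers were detected in every library. Hdac2 was at 57.6 to 87.9 CPM (counts scaled to a TMM-adjusted library total of 1000000) in the libraries labelled Hdac2 ECKO and at 68.2 to 96.1 CPM in MCAO ipsilateral (log2 fold change -0.11 ± 0.32 SE, adjusted p = 0.926, edgeR). Ezh2 was at 8.41 to 19.7 CPM in the 3 libraries with the Ezh2 ECKO label and at 4.44 to 7.84 CPM in MCAO ipsilateral (1.05 ± 0.86, adjusted p = 0.486, edgeR). Neither targeted gene was thus shown to be lower where its label says it was deleted. The rows count whole genes, so a deletion of some exons need not show in them, and Hdac2 ECKO and Ezh2 ECKO stand below for the libraries so labelled. Several libraries stood apart in the counts of these genes. The count of Hba-a2 per count of Hba-a1 was 0.811 to 0.845 in the 4 libraries MCAO ipsilateral and contralateral replicates 1 and 2, and 0.950 to 0.961 in the other 11 libraries not labelled Ezh2 ECKO. In the same 4 libraries Cd59a, a complement inhibitor of the red cell and endothelial surface chosen after its values were seen, was at 1030 to 1809 CPM, against 420 to 991 CPM in those 11. Hbb-bt per Hbb-bs did not separate them (0.694 to 0.737 against 0.709 to 0.759). MCAO contralateral replicate 1 and Ezh2 ECKO replicate 2 also had the highest summed level of 1466 olfactory and vomeronasal receptor genes, which brain endothelium is not known to use, at 1889 and 2083 CPM, against 152 to 716 CPM elsewhere.

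Adult globin transcripts made up several percent of the counts in 15 of 18 libraries and almost none in the 3 libraries labelled Ezh2 ECKO. The share of counts on the 4 globin genes was 7.32%, 2.44% and 5.67% in sham ipsilateral replicates 1 to 3. It was 10.6%, 7.27% and 11.2% in sham contralateral, so the highest ipsilateral share lay just above the lowest contralateral one. It was 3.78%, 5.78% and 4.87% in MCAO ipsilateral. In MCAO contralateral it was 4.63%, 12.7% and 4.72%, with replicate 2 far above the others. The libraries labelled Hdac2 ECKO held the highest shares of the series in replicates 1 and 2, at 19.9% and 19.5%, while replicate 3 was at 5.41%, inside the range of the WT groups. The libraries labelled Ezh2 ECKO had 0.0653%, 0.00932% and 0.0192%. The 95% Wilson interval of the lowest share, in Ezh2 ECKO replicate 2, was 0.00896% to 0.00970%. Such intervals cover counting error at most, since no molecular identifiers were used and reads can be copies of 1 molecule. They treat each count as independent although both mates of a pair were counted, so they are too narrow even for counting error.

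**Figure D1:**
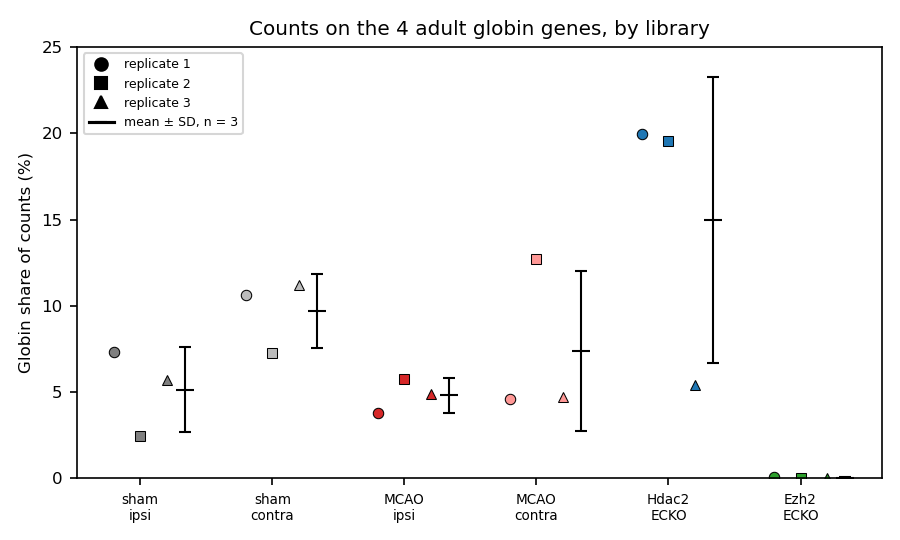
Share of library counts on the alpha and beta globin pairs (%, vertical axis) in the 3 libraries of each of the 6 groups (symbols mark replicate numbers), with the group mean ± SD as a bar beside them. Hdac2 ECKO replicates 1 and 2 stand at 19.9% and 19.5%, and the 3 Ezh2 ECKO libraries lie at or below 0.0653%.

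The alpha globins carried more counts than the beta globins in every library. The alpha pair stood at 37438, 11245 and 35686 CPM in sham ipsilateral and at 66489, 49269 and 75712 CPM in sham contralateral. It stood at 22824, 37895 and 28948 CPM in MCAO ipsilateral and at 24717, 95012 and 29749 CPM in MCAO contralateral. It stood at 193430, 145728 and 32630 CPM in the 3 libraries with the Hdac2 ECKO label and at 424, 55.0 and 139 CPM in those labelled Ezh2 ECKO. The highest Ezh2 ECKO library was thus far below the lowest library of any other group, sham ipsilateral replicate 2.

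The beta pair followed the alpha pair. It stood at 21523, 7959 and 13712 CPM in sham ipsilateral and at 43148, 22753 and 53815 CPM in sham contralateral. It stood at 15406, 27515 and 18461 CPM in MCAO ipsilateral and at 12724, 64436 and 21433 CPM in MCAO contralateral. The same libraries were high and low as for the alpha pair. It stood at 104366, 105650 and 16628 CPM in the 3 libraries with the Hdac2 ECKO label and at 247, 14.9 and 40.4 CPM in those labelled Ezh2 ECKO. Across libraries, log2(CPM + 0.5) of the beta pair and of the alpha pair correlated with r = 0.996 over 18 libraries and r = 0.968 over the 15 not labelled Ezh2 ECKO, a description of values that share library and depth. By group mean, both pairs ran in the order Hdac2 ECKO, sham contralateral, MCAO contralateral, MCAO ipsilateral, sham ipsilateral, Ezh2 ECKO. Of the neighbours in that order, only sham ipsilateral and Ezh2 ECKO had values that did not overlap, for both pairs.

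Per kilobase of the deposited feature length, the levels of the single genes can be set side by side. In MCAO ipsilateral the mean level was 19582 CPM per kb for Hba-a1, 20972 for Hba-a2, 15387 for Hbb-bs and 12295 for Hbb-bt, 5.66 for Alas2 and 0.0246 for Slc4a1. In the libraries labelled Ezh2 ECKO it was 138 CPM per kb for Hba-a1, 140 for Hba-a2, 75.6 for Hbb-bs and 60.5 for Hbb-bt, 0.0879 for Alas2 and 0.0290 for Slc4a1. The globins stood first on this scale in both groups, and the order of Alas2 and Slc4a1 was the same.

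**Figure D2:**
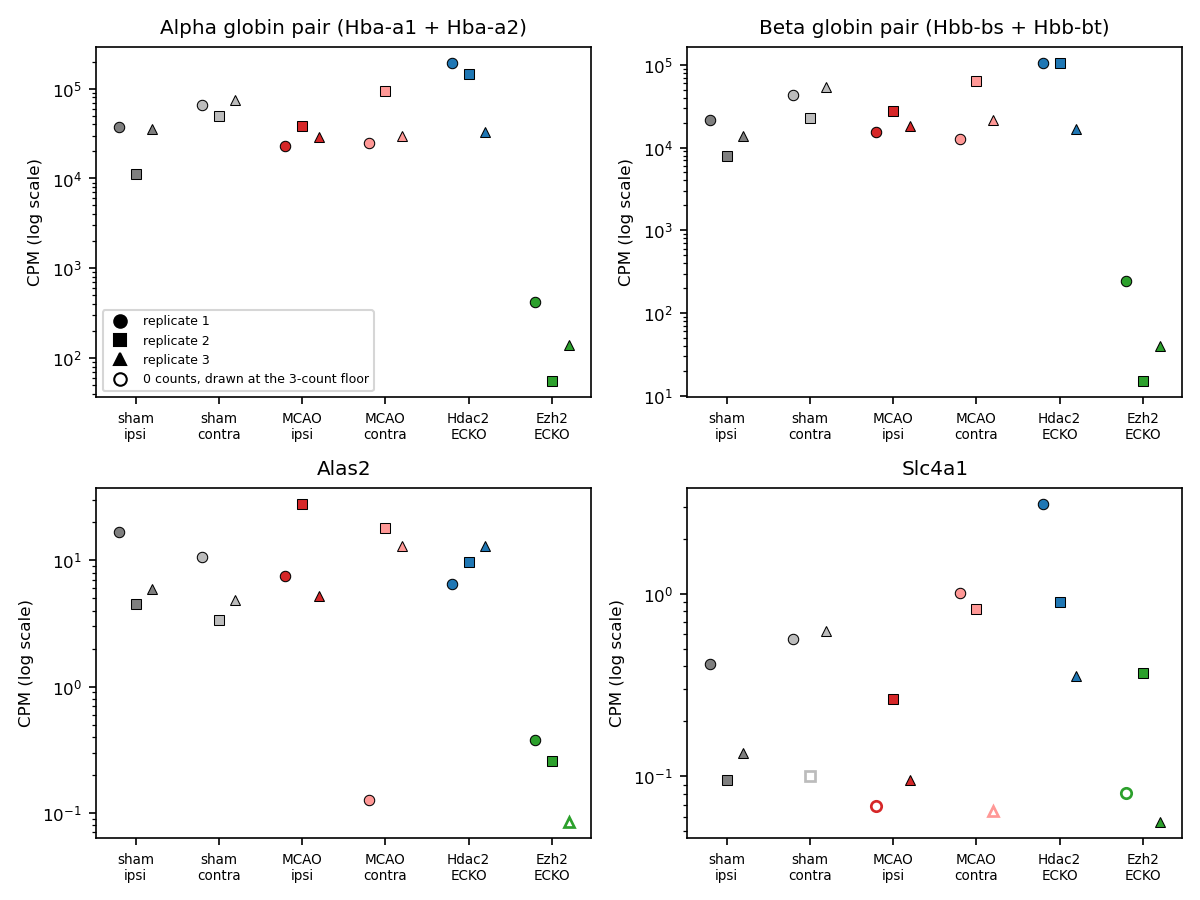
Levels (CPM, log scales) of the alpha globin pair, the beta globin pair, Alas2 and Slc4a1 in each library, by group, with symbols for replicate numbers. Open symbols are libraries at 0 counts, drawn at the level of 3 counts; the Ezh2 ECKO libraries are far below all others for both globin pairs, and MCAO contralateral replicate 1 lies among them for Alas2 at 0.126 CPM.

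The ratio of beta to alpha globin counts is a value within a library and does not depend on scaling. It was 0.575, 0.708 and 0.384 in sham ipsilateral, 0.649, 0.462 and 0.711 in sham contralateral, 0.675, 0.726 and 0.638 in MCAO ipsilateral, and 0.515, 0.678 and 0.720 in MCAO contralateral. It was 0.540, 0.725 and 0.510 in the libraries labelled Hdac2 ECKO and 0.582, 0.271 and 0.291 in those labelled Ezh2 ECKO. Ezh2 ECKO replicates 2 and 3, which had the fewest globin counts, had the lowest ratios of all 18 libraries, and replicate 1 lay among the others. Among the 4 comparisons of WT groups, the log2 ratio differed by at most 0.33 (MCAO ipsilateral against sham ipsilateral, two-sided exact permutation p = 0.3, adjusted 0.7). The smallest p that 3 against 3 libraries allow is 0.1.

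**Figure D3:**
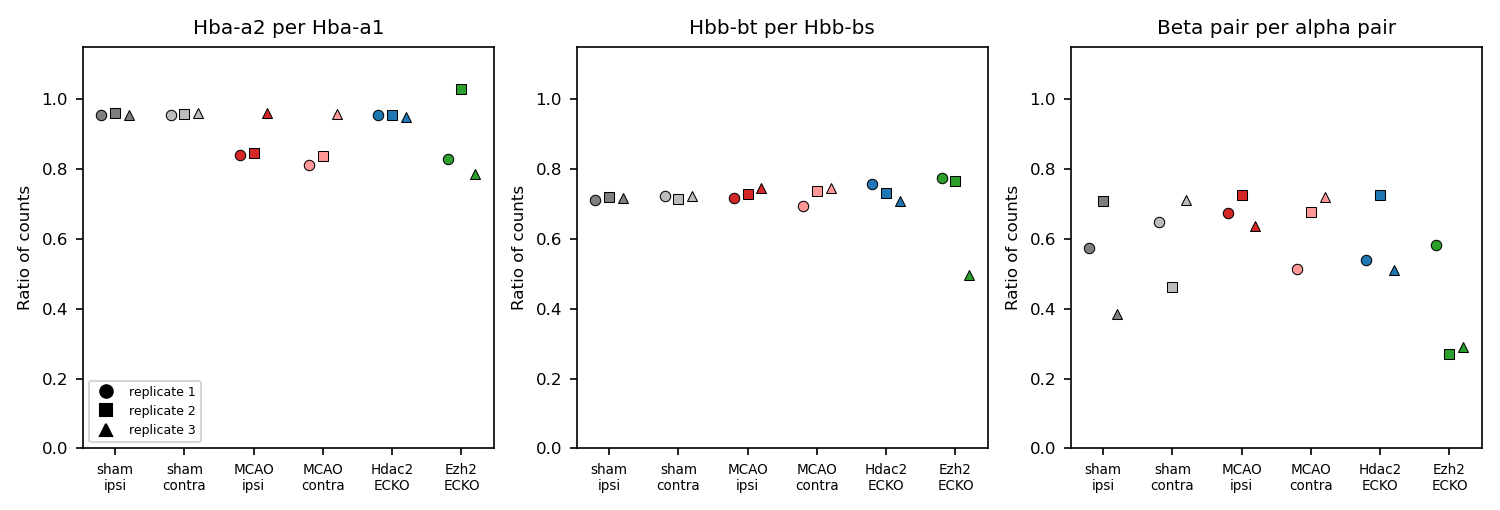
Count ratios within each library, by group: Hba-a2 per Hba-a1, Hbb-bt per Hbb-bs, and the beta pair per the alpha pair, with symbols for replicate numbers. Replicates 1 and 2 of both MCAO groups stand apart in the ratio of Hba-a2 to Hba-a1 (0.811 to 0.845), and Ezh2 ECKO replicates 2 and 3 have the lowest ratios of beta to alpha (0.271 and 0.291).

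Alas2 (chromosome X, bases 150547375 to 150570638, plus strand), which makes the haem precursor in erythroid cells, was a low-count gene beside the globins. Its counts were 808, 190 and 223 in sham ipsilateral, 418, 100 and 202 in sham contralateral, 332, 1268 and 220 in MCAO ipsilateral, 4, 832 and 602 in MCAO contralateral, and 198, 322 and 440 in the libraries labelled Hdac2 ECKO. The libraries labelled Ezh2 ECKO had 14, 9 and 0 counts, and MCAO contralateral replicate 1 was as low as they were. The 0 in Ezh2 ECKO replicate 3 is drawn at a floor of 3 counts, or 0.0838 CPM, which is no strict bound because both mates of a pair were counted. Alas2 did not rank the libraries as the globins did. In Hdac2 ECKO replicates 1 and 2, which had the highest globin shares, Alas2 came to 22.0 and 38.6 counts per 1000000 globin counts, against 263 in replicate 3. The other groups ran from 3.35 (MCAO contralateral replicate 1) to 428 (MCAO ipsilateral replicate 2), apart from Ezh2 ECKO with 563, 3664 and 0, where both counts were small. Across the 18 libraries, log2(CPM + 0.5) of Alas2 correlated with that of the summed globins with r = 0.765, and over the 15 not labelled Ezh2 ECKO with r = 0.270, both given as descriptions.

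Slc4a1 (chromosome 11, bases 102348824 to 102366203, minus strand), the band 3 anion exchanger, was close to the detection limit. It had at least 10 counts in 10 of 18 libraries, so it passed the count minimum through some groups only. Its counts were 20, 4 and 5 in sham ipsilateral, 22, 0 and 26 in sham contralateral, 0, 12 and 4 in MCAO ipsilateral, 32, 38 and 0 in MCAO contralateral, 94, 30 and 12 in the libraries labelled Hdac2 ECKO, and 0, 13 and 2 in those labelled Ezh2 ECKO. The low counts of MCAO ipsilateral and Ezh2 ECKO overlapped, so the drop seen in the globins and Alas2 was not detectable for Slc4a1 at this depth.

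The first comparison asks what the occlusion did on its own side. None of the 4 tested rows (alpha pair, beta pair, Alas2, Slc4a1) was called between MCAO ipsilateral and sham ipsilateral at an adjusted p under 0.05 (edgeR quasi-likelihood test), and 0% of the 17092 rows tested were. At an unadjusted p under 0.05 edgeR gave 1210 rows, and DESeq2 called 71 after adjustment, with none of these 4 among them. The log2 fold change was 0.09 ± 0.67 (SE) for the alpha pair (adjusted p = 0.979) and 0.51 ± 0.78 for the beta pair (0.880). It was 0.59 ± 1.07 for Alas2 (0.902) and -0.82 ± 1.73 for Slc4a1 (0.918). The globin share differed by -0.334 percentage points (4.81 ± 0.997% against 5.15 ± 2.48%, SD, n = 3, exact permutation p = 0.9, adjusted 0.9). As a share of the TMM-scaled total the difference was 0.783 points, the opposite direction. With MCAO ipsilateral reduced to replicate 3, the alpha pair was at 0.02 and Alas2 at -0.81, the opposite direction.

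On the opposite side, MCAO contralateral against sham contralateral, again none of the 4 rows was called, against 0% of all rows (754 rows at an unadjusted p under 0.05 by edgeR, 26 called by DESeq2). The log2 fold change was -0.36 ± 0.67 for the alpha pair (adjusted p = 0.946), -0.28 ± 0.77 for the beta pair (0.966), 0.72 ± 1.07 for Alas2 (0.932) and 0.61 ± 1.70 for Slc4a1 (0.967). The globin share was 7.35 ± 4.64% against 9.70 ± 2.13% (exact permutation p = 0.4, adjusted 0.667). With MCAO contralateral reduced to replicate 3, the alpha pair was at -1.09, the beta pair at -0.88 and Slc4a1 at -6.90, the last from a library with 0 counts. The effect of the occlusion on the 2 sides was tested as an interaction, and the adjusted p was 0.962 for the alpha pair, 0.944 for the beta pair, 0.994 for Alas2 and 0.954 for Slc4a1 (edgeR; 0 rows called of 17092, 581 at an unadjusted p under 0.05).

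Within the occluded mice, the globins of the ipsilateral libraries lay below the mean of the contralateral ones through 1 library. The alpha pair had a log2 fold change of -0.74 ± 0.67 and the beta pair of -0.68 ± 0.78 (edgeR, both with an adjusted p of 1), and without MCAO contralateral replicate 2 the values were 0.13 and 0.25. Alas2 was at 0.39 ± 1.07 and Slc4a1 at -2.31 ± 1.79. No row of 4 was called, and 0% of all rows were (528 at an unadjusted p under 0.05 by edgeR, 6 called by DESeq2). The globin shares were 4.81 ± 0.997% and 7.35 ± 4.64% (exact permutation p = 0.7, adjusted 0.875).

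In the sham mice, both globin pairs stood at a lower CPM in every ipsilateral library than in every contralateral one, which is a separation without a call. As an unscaled share of library counts the beta pair overlapped, at 1.01% to 2.67% on the ipsilateral and 2.30% to 4.66% on the contralateral side, while the alpha pair did not, at 1.43% to 4.65% and 4.97% to 6.56%. The log2 fold change of ipsilateral against contralateral was -1.18 ± 0.68 for the alpha pair (unadjusted p = 0.0950) and -1.47 ± 0.79 for the beta pair (unadjusted p = 0.0765), with an adjusted p of 0.9997 for both (edgeR). Groups did not overlap for 15.4% of all rows in this comparison, and 6.99% were lower in every ipsilateral library. No row of 4 was called, nor any of the 17092 (0%; 319 at an unadjusted p under 0.05 by edgeR, 6 called by DESeq2). The globin share was 5.15 ± 2.48% on the ipsilateral and 9.70 ± 2.13% on the contralateral side (exact permutation p = 0.2, adjusted 0.5). Alas2 went the other way, at 0.52 ± 1.07, and without sham ipsilateral replicate 1 it was at -0.28. Slc4a1 was at -0.88 ± 1.71.

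**Figure D4:**
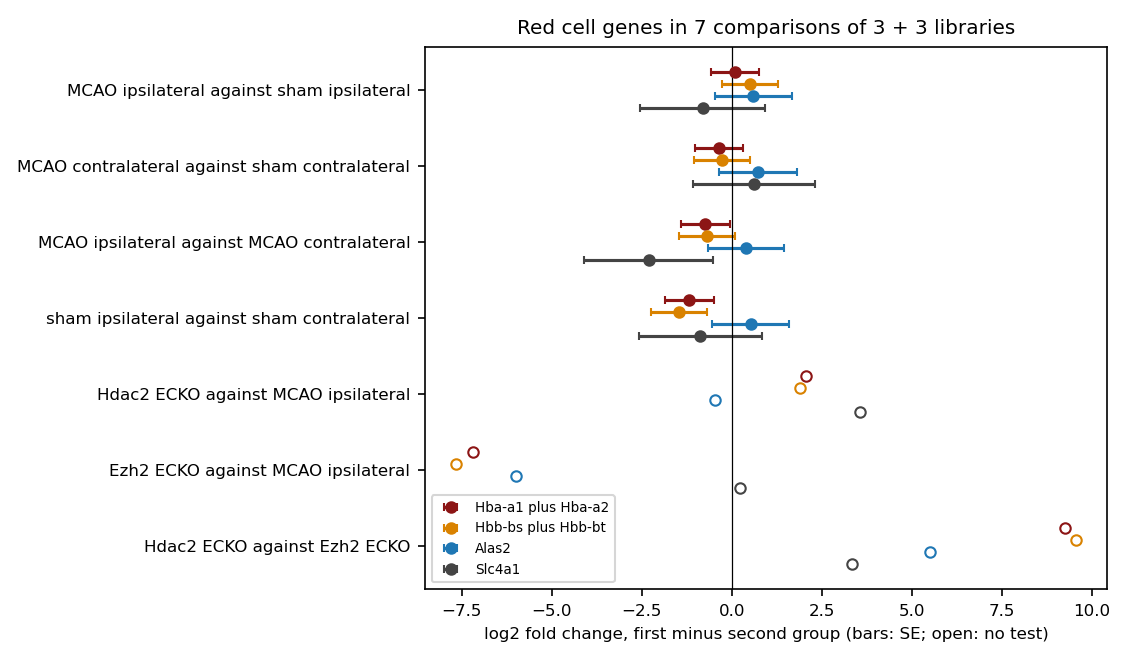
Log2 fold changes (horizontal axis, first minus second group) of the alpha globin pair, the beta globin pair, Alas2 and Slc4a1 in 7 comparisons of 3 against 3 libraries; bars are standard errors, and open points are the 3 comparisons with a deletion group, whose values chose the genes, shown with no error or test. The alpha pair lies at 2.05 for Hdac2 ECKO and at -7.18 for Ezh2 ECKO against MCAO ipsilateral.

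The libraries labelled Hdac2 ECKO were compared with MCAO ipsilateral, which holds side and occlusion constant, as a description with no test. In 2 of the 3 libraries the globins were well above every MCAO ipsilateral library, and the third lay among them, so that the groups overlapped. The alpha pair had a mean of 123930 ± 82587 CPM against 29889 ± 7579 CPM (SD, n = 3), a log2 fold change of 2.05. The beta pair had 75548 ± 51030 CPM against 20461 ± 6297 CPM, a log2 fold change of 1.88. The globin share was 15.0 ± 8.28% against 4.81 ± 0.997%.

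Alas2 did not accompany the globins in this comparison. Its log2 fold change was -0.48, and 0.60 without MCAO ipsilateral replicate 2. Slc4a1 stood at a higher CPM in each Hdac2 ECKO library than in each MCAO ipsilateral library, at 3.11, 0.903 and 0.353 CPM against 0, 0.265 and 0.0956 CPM. Its log2 fold change was 3.56. Hdac2 ECKO replicate 3 and MCAO ipsilateral replicate 2 both had 12 counts, so only the scaling set these libraries apart. Groups did not overlap for 19.9% of all rows here, and 9.57% were higher in every Hdac2 ECKO library. Of all rows, 0.0117% were called, 2 of 17092.

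The libraries labelled Ezh2 ECKO had the lowest adult globin levels, and these values, on which the genes were chosen, are given without a test. Ezh2 itself was not shown to be lower in them, as given above. Against MCAO ipsilateral, the mean of the alpha pair was 145-fold lower (206 ± 193 CPM against 29889 ± 7579 CPM), that of the beta pair 203-fold lower (101 ± 127 CPM against 20461 ± 6297 CPM) and that of Alas2 64.4-fold lower (0.211 ± 0.193 CPM against 13.6 ± 12.5 CPM). Even the lowest MCAO ipsilateral library was 53.9-fold above the highest Ezh2 ECKO library for the alpha pair, 62.5-fold for the beta pair and 13.9-fold for Alas2. The fitted log2 fold changes were -7.18, -7.67 and -5.99, while the median over all rows was 0.17. With MCAO ipsilateral reduced to replicate 3 they were -7.07, -7.46 and -4.55. Slc4a1 was at 0.23 and its groups overlapped. Groups did not overlap for 29% of all rows in this comparison, and 1.45% were called, 1.22% as lower. The Ezh2 ECKO libraries also differed among themselves, from 55.0 to 424 CPM for the alpha pair.

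Between the 2 deletions, the alpha pair was 602-fold higher by group means in the libraries labelled Hdac2 ECKO, the beta pair 751-fold and Alas2 46.0-fold, with fitted log2 fold changes of 9.23, 9.55 and 5.50. Both of these comparisons share the Ezh2 ECKO libraries. The lowest Hdac2 ECKO library was 77.0-fold above the highest Ezh2 ECKO library for the alpha pair, 67.4-fold for the beta pair and 17.3-fold for Alas2. Slc4a1 was at 3.33 on the log2 scale with overlapping groups. Groups did not overlap for 12.1% of all rows, 0.111% were called, and 0.105% were called as higher.

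Other genes of the pathway, in lists chosen with earlier results of these data known, are given by calls and medians. The median log2 fold change of the other globins was -0.28 in Ezh2 ECKO against MCAO ipsilateral (2 of 7 positive) and 0.71 in Hdac2 ECKO against MCAO ipsilateral (7 of 7 positive), beside 0.17 and 0.11 over all rows. Among these globins, of which 7 of 9 could be tested, none was called in any of the 7 comparisons by edgeR, and at an unadjusted p under 0.05 there were 1 in Ezh2 ECKO against MCAO ipsilateral and 3 in Hdac2 ECKO against Ezh2 ECKO. The embryonic beta-like globin Hbb-y stood at 7.68, 7.79 and 12.4 CPM in the 3 libraries with the Ezh2 ECKO label and at 13.0, 11.1 and 9.80 CPM in MCAO ipsilateral, so the groups overlapped. The other 12 libraries held 4.81 to 27.9 CPM of Hbb-y. Hbq1a, a theta globin gene chosen after its values were seen, had 0 counts in all 3 Ezh2 ECKO libraries and 46, 51 and 76 in MCAO ipsilateral. With each 0 set to a floor of 3 counts its mean was 16.0-fold lower, which is no strict bound because both mates of a pair were counted. It was not called (adjusted p = 0.101, edgeR). Hbq1a was also at 0 counts in sham contralateral replicate 2, MCAO contralateral replicate 1 and Hdac2 ECKO replicate 3. Hbq1b, the other theta globin gene, had 0, 22 and 0 counts in Ezh2 ECKO and 76, 100 and 44 in MCAO ipsilateral, which did not overlap. Of all rows, 29% did not overlap in this comparison, 15.3% as lower in Ezh2 ECKO. Hbq1b was not called (adjusted p = 0.301, edgeR).

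In the haem synthesis list 0 of 12 genes were called in any comparison (edgeR), with up to 4 at an unadjusted p under 0.05, in Ezh2 ECKO against MCAO ipsilateral. Its median log2 fold change was 0.08 in that comparison and -0.75 in Hdac2 ECKO against MCAO ipsilateral. Alas1, the form of the first enzyme used outside red cells, stood at 162, 63.8 and 79.5 CPM in Ezh2 ECKO and at 282, 347 and 142 CPM in MCAO ipsilateral. Tfrc, the transferrin receptor that brings iron into cells, stood at 905 to 1193 CPM in Ezh2 ECKO and at 256 to 684 CPM in MCAO ipsilateral (adjusted p = 0.0617, edgeR). Both genes are used by brain endothelium as well.

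For 17 red cell membrane and skeleton genes the median log2 fold change was 0.66 in Ezh2 ECKO against MCAO ipsilateral, beside 0.17 over all rows, and 0.46 in Hdac2 ECKO against MCAO ipsilateral, beside 0.11 over all rows. Of these 17 fold changes, 10 were positive in each of the 2 comparisons. Several of the genes were near the count floor, so the medians rest in part on small counts. As examples, Epb42 had 0, 19 and 3 counts in Ezh2 ECKO replicates 1 to 3, Kel 0, 27 and 16, and Ermap 2, 33 and 0. These examples were not picked by a rule, and all were highest in replicate 2, which also had the highest olfactory and vomeronasal receptor level. Tspo2, of the same list, went the other way, with 6, 4 and 0 counts in replicates 1 to 3. Epb41, which encodes the skeleton protein 4.1R, stood at 7.62 to 20.1 CPM in Ezh2 ECKO and 21.5 to 30.7 CPM in MCAO ipsilateral and was not called.

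For 17 red cell maturation genes the median log2 fold change was -0.23 in Ezh2 ECKO and -0.04 in Hdac2 ECKO, both against MCAO ipsilateral, beside 0.17 and 0.11 over all rows. Bnip3l, a mitophagy receptor of maturing red cells, and Prdx2, a peroxidase abundant in red cells, were not called, at 567 to 676 CPM and 95.8 to 214 CPM in Ezh2 ECKO against 692 to 999 CPM and 289 to 342 CPM in MCAO ipsilateral.

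Of 10 tested haemoglobin and haem clearance genes, 1 was called, Ftl1, as lower in Ezh2 ECKO against MCAO ipsilateral, where 1.22% of all rows were. The median log2 fold change of the list was -0.86 there (3 of 10 positive) and -0.36 in Hdac2 ECKO against MCAO ipsilateral. Ftl1 encodes the light chain of ferritin, which stores iron in most cell types. It stood at 507, 435 and 376 CPM in Ezh2 ECKO and at 2531, 3521 and 2182 CPM in MCAO ipsilateral (log2 fold change -2.64 ± 0.53, adjusted p = 0.0299, edgeR). Without single libraries the adjusted p of Ftl1 ran from 0.0223 to 0.173 (edgeR). The call was lost in 4 of these 6 runs and kept only without MCAO ipsilateral replicate 3 or Ezh2 ECKO replicate 1. It was also lost under 2 other alternatives, among them MCAO ipsilateral reduced to replicate 3. Across the other alternatives the log2 fold change of Ftl1 ran from -2.68 to -2.25. The heavy chain gene Fth1 was at 484 to 1392 CPM against 3679 to 5104 CPM and was not called (adjusted p = 0.0635). Ferritin related genes have many processed copies in the mouse genome, so their counts are uncertain. Abcg2, a porphyrin exporter of red cell precursors and of brain capillaries, was at 1983 to 2506 CPM in Ezh2 ECKO and at 1444 to 2454 CPM in MCAO ipsilateral.

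**Figure D5:**
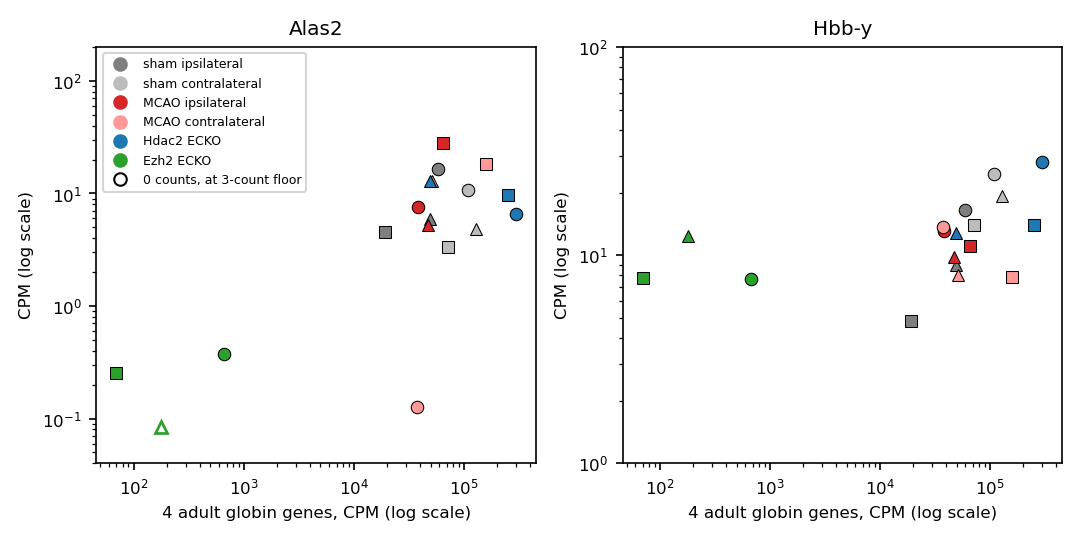
Levels of Alas2 and Hbb-y (vertical axes, CPM, log scale) against the summed level of the 4 adult globin genes (horizontal axes, CPM, log scale), 1 point a library, coloured by group. Alas2 is lowest in Ezh2 ECKO and in MCAO contralateral replicate 1, whereas Hbb-y lies between 4.81 and 27.9 CPM at every globin level.

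Markers of blood cells were read beside the globins, and their part in the globin values was not tested. Other red cell markers, 9 in all, summed to 1.02, 7.34 and 2.15 CPM in Ezh2 ECKO replicates 1 to 3. They summed to 0.979 to 4.399 CPM in MCAO ipsilateral and to 2.67 to 8.66 CPM in Hdac2 ECKO, and up to 6 of the 9 were at 0 in a library. The erythroid transcription factor gene Klf1 had 0, 4 and 2 counts in Ezh2 ECKO, 0, 42 and 0 in Hdac2 ECKO and 10, 0 and 0 in MCAO ipsilateral. Tspo2, another of the 9 and chosen after its values were seen, had 6, 4 and 0 counts in Ezh2 ECKO. It had 196, 78 and 10 in Hdac2 ECKO and 10, 28 and 76 in MCAO ipsilateral. Against MCAO ipsilateral, the median log2 fold change of the 9 was 0.65 in Hdac2 ECKO and 1.10 in Ezh2 ECKO. Platelet markers, 9 in all, summed to 19.7 to 29.9 CPM in Ezh2 ECKO, 36.9 to 42.3 CPM in MCAO ipsilateral and 9.73 to 84.5 CPM in Hdac2 ECKO, and up to 4 of the 9 were at 0 in a library. Pf4, the platelet chemokine, was at 46.8, 21.5 and 0 CPM in Hdac2 ECKO, high in the same 2 libraries as the globins. It was at 0.108, 0.114 and 0.112 CPM in Ezh2 ECKO and at 9.11, 8.21 and 8.42 CPM in MCAO ipsilateral. Ppbp, another platelet chemokine chosen after its values were seen, ran differently, at 0, 4.03 and 0.235 CPM in Hdac2 ECKO, 0.0539, 14.8 and 0.112 CPM in Ezh2 ECKO and 17.2, 14.0 and 10.7 CPM in MCAO ipsilateral. The median log2 fold change of 8 tested platelet markers was -0.11 in Hdac2 ECKO and -1.58 in Ezh2 ECKO, both against MCAO ipsilateral. Itga2b, which encodes CD41, the antigen sorted against, was at 29.4, 2.19 and 18.4 CPM in Ezh2 ECKO and at 11.7, 12.4 and 16.8 CPM in MCAO ipsilateral. Ptprc, which encodes CD45, was at 0.485 to 6.57 CPM in Ezh2 ECKO and 0.309 to 0.813 CPM in MCAO ipsilateral. Of 10 leukocyte markers, Ly6c2, which brain endothelium also expresses, made up most of the sum, 368 to 549 CPM in Ezh2 ECKO and 1265 to 2374 CPM in MCAO ipsilateral. Neutrophil markers summed to 0.838 to 7.87 CPM in Ezh2 ECKO and to 0.353 to 3.73 CPM in MCAO ipsilateral. The 12 endothelial markers summed to 8253 to 12390 CPM in Ezh2 ECKO, below the 17406 to 27427 CPM of MCAO ipsilateral, and to 12287 to 17093 CPM in Hdac2 ECKO. Ly6c1 alone made up most of the sum in MCAO ipsilateral, and the other 11 summed to 5641 to 8079 CPM in Ezh2 ECKO and 7641 to 9707 CPM in MCAO ipsilateral, which overlapped.

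The genes whose levels were most like the summed adult globins were found among 11725 rows with a mean of at least 1 CPM, as a description. Over all 18 libraries these were Yipf2 (r = 0.904), Alpl (0.895), Sys1 (0.882), Carm1 (0.881) and Sap30bp (0.875), against a median r of 0.120 over all rows. All 5 were lower in each Ezh2 ECKO library than in every other library. The ranking itself favours such genes, because the globins were lowest in those libraries. Over the 15 libraries not labelled Ezh2 ECKO they were Crip1 (0.945), Uqcrq (0.911), S100a1 (0.908), Tmem256 (0.902) and Cdc26 (0.901), against a median of 0.0670. No gene was in both lists. Over these 15 libraries, r with the globins was 0.725 for Slc4a1 and 0.270 for Alas2, and among 5 other globins it ran from 0.208 for Hba-x to 0.848 for Hbb-bh1.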

How the data were processed

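The deposited table holds whole-number counts per gene. Its name calls them normalized, but totals ran from 25791401 to 57576255 and even values made up 77.3% to 89.4% of the counts from 1 to 20, so they were used as unscaled counts in which both mates of a pair were counted. The submitters' processing notes name mm10, FastQC, cutadapt, STAR, featureCounts and DESeq2, and the strand setting is not given in the sources used here. Libraries were SMART-Seq v4 PLUS libraries sequenced as read pairs, per the labels. Of 21638 rows, 21442 were found in GENCODE M21 (GRCm38).

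Each globin pair was summed, rows with at least 10 counts in at least 3 libraries were kept (17092), and edgeR 4.0.16 (R 4.3.3) fitted 6 group means to 18 libraries with TMM scaling and its quasi-likelihood test. P-values were Benjamini-Hochberg adjusted over all rows, with calls under 0.05. SE is the log2 fold change divided by the root of F. A floor of 3 counts was 0.0618 to 0.101 CPM. Shares and ratios had two-sided exact permutation tests, adjusted over 5 comparisons. These were the 4 of WT groups and Hdac2 ECKO against MCAO ipsilateral, whose p-value is not given because its values chose the genes. The scripts were tested on simulated counts. DESeq2 1.42.0 and limma 3.58.1 (voom), scalings, filters and left-out libraries were alternatives. Of each pathway list, genes called in any comparison and those highest by mean were named. A few others were named as examples, outside this rule. Members, lists and markers were chosen with earlier results of these data known. In the lists, 2 genes are not reported here, so no count of calls is given for the red cell membrane and maturation lists. Protein sequences were not used here.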

Additional observations from a re-analysis of the deposited data

How the results depend on the processing

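Counting error set the limit for Slc4a1 and for Alas2 in the libraries labelled Ezh2 ECKO, where a level was set by 0 to 14 counts. With 3 libraries a group and a common biological coefficient of variation of 0.774, the tests had wide errors, and the alternatives moved the number of called genes over all rows far more than the values of the globins. None of the alpha pair, beta pair, Alas2 and Slc4a1 was called under any alternative in the 4 comparisons of WT groups. Causes of the changes below were not tested.

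The count of called genes changed with the tool and the samples. In MCAO ipsilateral against sham ipsilateral it was 0, and 71 by DESeq2, 74 with only the 2 groups compared and 3 with MCAO reduced to replicate 3 on each side, an alternative chosen after seeing the data. In MCAO contralateral against sham contralateral it was 26 by DESeq2 and 3 with that reduction. It was 6 by DESeq2 in both comparisons of the sides. In Hdac2 ECKO against MCAO ipsilateral it was 2, and 4 with RLE factors, 5 with at least 50 counts, 237 by DESeq2, 7 by limma-voom, 0 with only the 2 groups compared, 5 with halved counts and 0 with the reduction. In Ezh2 ECKO against MCAO ipsilateral it was 248, and 510 with at least 50 counts, 1614 by DESeq2, 484 with only the 2 groups compared, 433 with halved counts and 5 with the reduction. In Hdac2 ECKO against Ezh2 ECKO it was 19, and 30 with at least 50 counts, 640 by DESeq2, 6 by limma-voom and 11 with only the 2 groups compared. Leaving out single libraries gave 0 to 1 called genes in MCAO contralateral against sham contralateral, 0 to 19 in Hdac2 ECKO against MCAO ipsilateral, 3 to 293 in Ezh2 ECKO against MCAO ipsilateral and 3 to 71 in Hdac2 ECKO against Ezh2 ECKO.

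Same-numbered libraries did not deviate together throughout in any comparison. For replicates 1 to 3, r was 0.294, 0.393 and 0.035 between the MCAO sides and 0.376, 0.350 and -0.127 between the sham sides. These mixed values do not settle whether the numbers pair the libraries, and the main test did not pair them. With the replicate block, 9 genes were called in Ezh2 ECKO against MCAO ipsilateral and 7 in Hdac2 ECKO against Ezh2 ECKO, the alpha pair was at -7.36 in the first, and Slc4a1 turned to -0.11 in MCAO contralateral against sham contralateral.

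Directions that turned were these. The globin share of MCAO ipsilateral against sham ipsilateral was 0.783 points on the TMM-scaled total. Alas2 in MCAO contralateral against sham contralateral was -0.57 by limma-voom. With the reduction to replicate 3, Alas2 was at -0.81 in MCAO ipsilateral against sham ipsilateral, -1.31 in MCAO ipsilateral against contralateral and 0.91 in Hdac2 ECKO against MCAO ipsilateral. Slc4a1 was at -6.90 in MCAO contralateral against sham contralateral and 4.89 in MCAO ipsilateral against contralateral, where the globin share differed by 0.147 points and the log2 beta to alpha ratio by -0.18.

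Leaving out single libraries turned directions in most comparisons of low or variable rows, and each range follows. In MCAO ipsilateral against sham ipsilateral the alpha pair ran from -0.29 to 0.38, Alas2 from -0.50 to 1.40, Slc4a1 from -2.10 to 0.094 and the globin share from -1.68 to 0.753 points. In MCAO contralateral against sham contralateral the beta pair ran from -1.23 to 0.13 and the log2 ratio from -0.11 to 0.23. Between the MCAO sides the alpha pair ran from -1.09 to 0.13, the beta pair from -1.10 to 0.25, Alas2 from -0.70 to 1.03, the globin share from -3.91 to 0.136 points and the log2 ratio from -0.043 to 0.20. Between the sham sides Alas2 ran from -0.28 to 1.11 and the log2 ratio from -0.35 to 0.10. Alas2 ran from -0.93 to 0.60 in Hdac2 ECKO against MCAO ipsilateral, and Slc4a1 from -2.004 to 1.51 in Ezh2 ECKO against MCAO ipsilateral.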
